A study of Mus musculus with 4 samples.

Results

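The 7 subunits of respiratory complex I that are encoded in mitochondrial DNA (mt-Nd1, mt-Nd2, mt-Nd3, mt-Nd4l, mt-Nd4, mt-Nd5 and mt-Nd6) were followed in m6A peak lists of mouse heart. They were found by their gene symbols in the deposited lists, and all 7 had a peak in at least 1 list, out of 6653 genes with a peak in either. They held 16 of the 39717 deposited peaks. N6-methyladenosine (m6A), a methyl mark inside RNA, was mapped by MeRIP-seq, in which short RNA fragments are pulled down with an antibody to the mark and sequenced beside unselected input. The treated C57BL/6 hearts came from mice that received, over 14 days by implanted minipump, 30 mg/kg of the CHAPIR mimic (CHAPIR is a PIWI-interacting RNA, a small RNA class best known from germ cells). The control hearts (NC) came from C57BL/6 mice treated in the same way with a scrambled mimic, for which the labels state no dose of its own, and all libraries are labelled 2 weeks. Age, sex and the number of animals behind a library are not given in the labels used here.

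Complex I is the entry enzyme of the respiratory chain: it passes electrons from NADH to ubiquinone and pumps protons across the inner mitochondrial membrane. Most of its subunits are made from nuclear genes, while the mitochondrial ones form the core of the membrane arm, on which heart muscle, with its high demand for ATP, depends. Mitochondrial genes lie close together without introns, are transcribed from both strands as long precursors, and are cut out largely at the tRNAs between them. The main m6A writer complex of mRNA acts in the nucleus, whereas these RNAs are made inside mitochondria.

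Each condition had 1 immunoprecipitated and 1 input library, and the authors called 1 peak list from each such pair. The CHAPIR list held 16562 peaks in 4572 genes and the NC list 23155 peaks in 5638 genes. Nothing measured the spread between animals, so the conditions could not be tested against each other, and the differences given are between these lists. The read depth is unknown. Markers of heart muscle had peaks in both lists, 8 of 8 with CHAPIR and 7 of 8 with NC (all but Actc1). Adipocyte markers had a peak for 0 of 4 genes (Adipoq, Plin1, Cidea and Cfd) with CHAPIR and for 4 of 4 with NC, and the part of this in the results below was not tested. Fibroblast markers had peaks for 4 of 4 genes with CHAPIR and 3 of 4 with NC, endothelial markers for 3 of 4 and 4 of 4, and macrophage markers for 3 of 4 and 2 of 4.

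In the CHAPIR list all 7 complex I genes had a peak, and in the NC list 6 did. The 6 shared genes were mt-Nd2, mt-Nd3, mt-Nd4l, mt-Nd4, mt-Nd5 and mt-Nd6, while mt-Nd1 had peaks in the CHAPIR list only. Of all genes with a peak in either list, 53.5% had one in both, 15.3% in the CHAPIR list only and 31.3% in the NC list only. With 7 genes, the count of shared members describes these genes and no more. Absence from a list says only that nothing in the gene passed the authors' threshold. In whole tissue, moreover, fewer cells of a type and less RNA per cell cannot be told apart.

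The peaks followed the outlines of the genes. Of the 8 CHAPIR peaks, 6 ran from the first to the last base of their gene, as did 4 of the 8 NC peaks, and no peak reached past its gene on either side. All 16 were single blocks, as the genes have no introns. Together the peaks covered 90.1% of the 6361 bases of the 7 genes in the CHAPIR list and 74.7% in the NC list. All 4750 bases covered in the NC list were also covered in the CHAPIR list, which added 984 bases, of which 330 lay in mt-Nd1, 177 in mt-Nd2 and 477 in mt-Nd5.

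**Figure D1:**
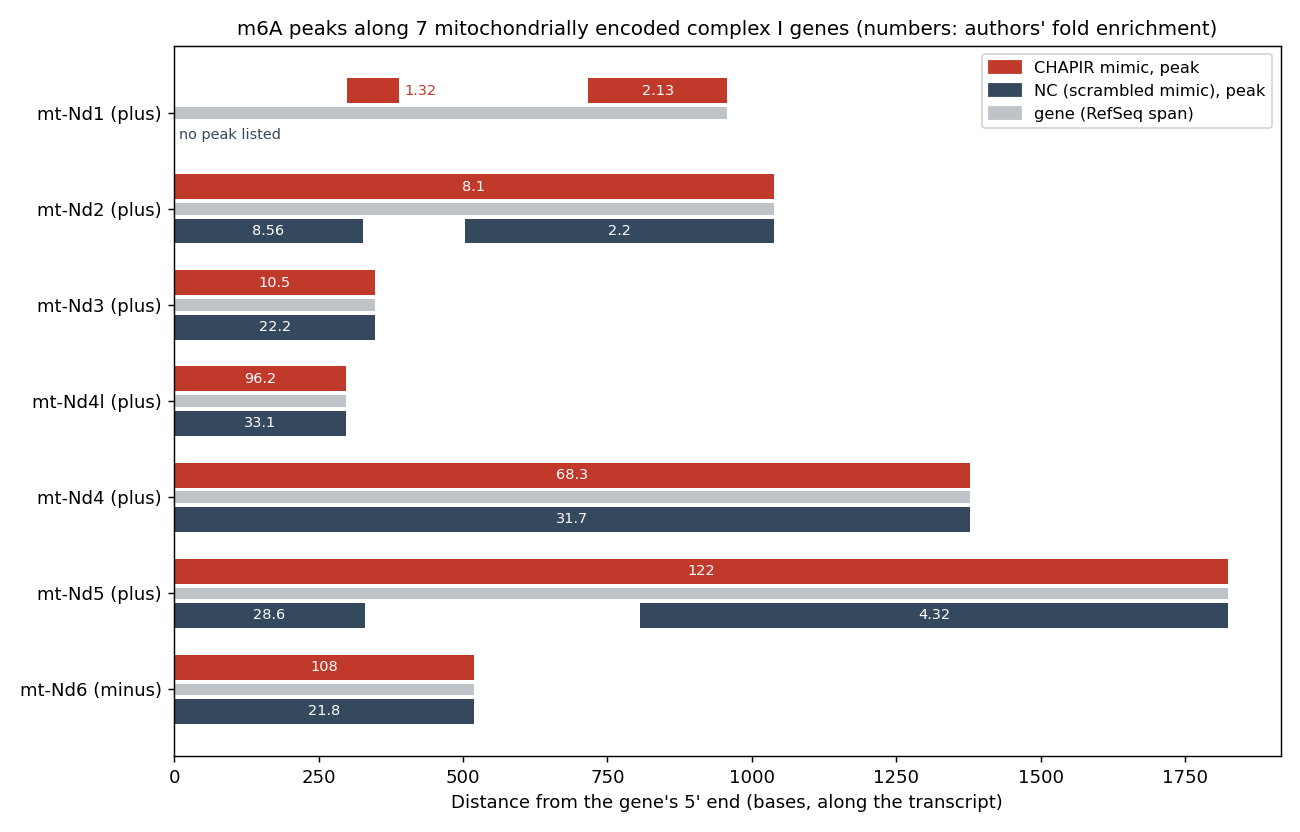
Peaks (coloured bars, CHAPIR above and NC below) along each of the 7 genes (grey bars), as distance in bases from the gene's 5′ end along its transcript, with the authors' fold enrichment printed on or beside each peak. 4 genes are covered from end to end in both lists, mt-Nd2 and mt-Nd5 carry 1 peak in the CHAPIR list but 2 in the NC list, and mt-Nd1 has short peaks in the CHAPIR list only.

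The subunits mt-Nd2, mt-Nd4 and mt-Nd5 resemble antiporters and are the proton-pumping units of the membrane arm. The mt-Nd5 gene (mitochondrial chromosome, 11742 to 13565, GRCm38, plus strand, 1824 bases) was covered whole by 1 CHAPIR peak with a fold enrichment of 122. Fold enrichments are the authors' values, the signal of the immunoprecipitated library divided by that of the input. They are not scaled between the lists, so each one is read here against the other peaks of its own list. The mt-Nd5 value was the second highest, at rank 2 of 16562 CHAPIR peaks, and the peak was the third widest of the 11349 CHAPIR peaks in a single block (rank 3).

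In the NC list mt-Nd5 was split. A peak of 330 bases at the 5′ end (11742 to 12071) had a fold of 28.6, at rank 63 of 23155. A second peak of 1017 bases (12549 to 13565) ran to the 3′ end with a fold of 4.32, and 63.5% of the NC peaks had a lower fold. The 477 bases between them were in no NC peak. The fold of the 5′ peak was 6.62 times that of the 3′ peak within the same list. The CHAPIR fold averages the whole gene, so it covers other bases than either NC value.

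The mt-Nd4 gene (10167 to 11544, plus strand, 1378 bases) was covered from end to end in both lists. Its fold was 68.3 in the CHAPIR list (rank 18 of 16562) and 31.7 in the NC list (rank 42 of 23155). The same edges appeared in both lists for 4 members, mt-Nd3, mt-Nd4l, mt-Nd4 and mt-Nd6. Over all peaks, 4.18% of CHAPIR peaks and 2.99% of NC peaks had the exact edges of a peak of the same gene in the other list. Peaks that fill a gene have edges set by the annotation, and so coincide wherever the gene is covered in full.

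The mt-Nd2 gene (3914 to 4951, plus strand, 1038 bases) carried weaker enrichment. A single CHAPIR peak covered all of it with a fold of 8.10, and 85.3% of the CHAPIR peaks had a lower fold. In the NC list the 5′ peak of 327 bases (3914 to 4240) had a fold of 8.56 and the 3′ peak of 534 bases (4418 to 4951) a fold of 2.20, which left 177 bases between them. The 5′ peak therefore stood at 3.89 times the 3′ peak, the same order as in mt-Nd5. These NC folds lay above 91.04% and 15.9% of the NC peaks.

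The subunits mt-Nd1, mt-Nd3, mt-Nd4l and mt-Nd6 lie near the ubiquinone channel and join it to the pumping units. Of these, mt-Nd6 (13552 to 14070, minus strand, 519 bases) is the only mitochondrial protein-coding gene on the other strand, and it had the highest fold of the 4 in the CHAPIR list but not in the NC list, where mt-Nd4l and mt-Nd3 stood above it. A peak over the whole of mt-Nd6 had a fold of 108 in the CHAPIR list (rank 4 of 16562) and of 21.8 in the NC list (rank 119 of 23155). Its last 14 bases (13552 to 13565) overlap the end of mt-Nd5 on the opposite strand, and the peaks of both genes shared these bases in both lists.

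Sharing bases with a peak of the opposite strand was found for mt-Nd5 and mt-Nd6 in each list, against 7.59% of genes in the CHAPIR list and 7.17% in the NC list. The library kit keeps the strand of the RNA, per the labels, but whether the peak caller used it was not stated in the labels. Without strand, reads over those 14 bases would count for both genes, and plus-strand reads over the rest of mt-Nd6 would count for mt-Nd6. No plus-strand gene is annotated over that rest, and the peaks stayed inside annotated genes. The lists therefore could not hold a plus-strand peak there, and the share of such reads in the mt-Nd6 values was not tested.

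The short gene mt-Nd4l (9877 to 10173, plus strand, 297 bases) was covered whole in both lists, with a fold of 96.2 in the CHAPIR list (rank 8 of 16562) and 33.1 in the NC list (rank 33 of 23155). It shares its last 7 bases (10167 to 10173) with mt-Nd4 on the same strand, and both are known to be translated from 1 mRNA. In the order of folds mt-Nd4l and mt-Nd4 were neighbours in each list. With 1 list per condition, no error is known that would order values as close as 33.1 and 31.7.

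The gene mt-Nd3 (9459 to 9806, plus strand, 348 bases), whose protein carries a loop next to the ubiquinone site, was the only one of the 4 genes covered whole in both lists to stand lower among the CHAPIR peaks than among the NC peaks. Its fold was 10.5 in the CHAPIR list (rank 1565 of 16562) and 22.2 in the NC list (rank 112 of 23155). Divided by the median of its list, this was 2.72 with CHAPIR and 6.36 with NC. For mt-Nd6 the same quotient was 28.0 with CHAPIR and 6.25 with NC, so the pair stood close together in the NC list and far apart in the CHAPIR list. The peak of mt-Nd3 was also the one member peak in each list whose FDR was above 0, at 2.51e-93 with CHAPIR and 1e-218 with NC.

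The gene mt-Nd1 (2751 to 3707, plus strand, 957 bases), whose protein forms the entrance of the ubiquinone channel, stood at the low end. Its CHAPIR peaks covered 90 bases (3050 to 3139) with a fold of 1.32 and 240 bases at the 3′ end (3468 to 3707) with a fold of 2.13, together 34.5% of the gene. Only 0.296% and 10.02% of the CHAPIR peaks had a lower fold. Here the 3′ peak was the higher one, the reverse of mt-Nd2 and mt-Nd5. Its FDR was nevertheless 0 for both peaks, the smallest value deposited, and the NC list held no peak assigned to mt-Nd1. An NC peak of the next gene, the tRNA gene mt-Ti, covered the 2 bases (3706 to 3707) that both genes share. The presence of mt-Nd1 in 1 list rests on these 2 peaks of low fold.

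**Figure D2:**
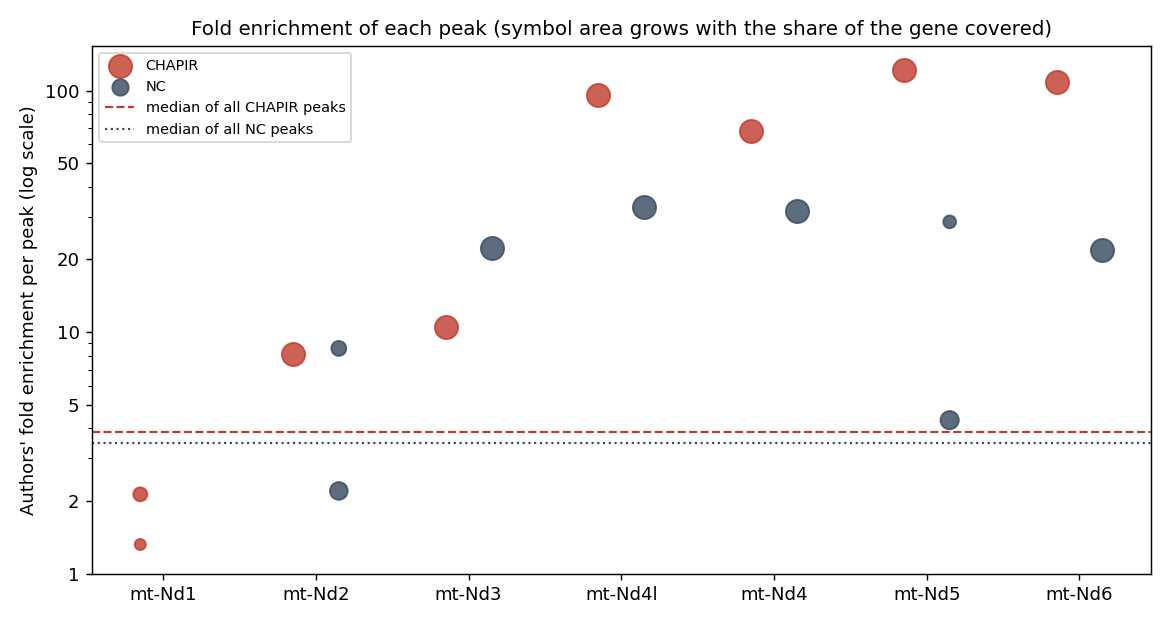
Authors' fold enrichment of every peak of the 7 genes on a log axis (CHAPIR left and NC right of each gene, 1 list per condition, no error available), with symbol area growing with the share of the gene covered and lines at the median fold of all peaks in each list. From mt-Nd4l to mt-Nd6 the CHAPIR points lie between 68.3 and 122, while both mt-Nd1 points lie below the CHAPIR median of 3.86.

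By their best peak, the one of smallest FDR and then highest fold, the order in the CHAPIR list was mt-Nd5 (122), mt-Nd6 (108), mt-Nd4l (96.2), mt-Nd4 (68.3), mt-Nd3 (10.5), mt-Nd2 (8.10) and mt-Nd1 (2.13). In the NC list it was mt-Nd4l (33.1), mt-Nd4 (31.7), mt-Nd5 (28.6), mt-Nd3 (22.2), mt-Nd6 (21.8) and mt-Nd2 (8.56). In both lists the genes from mt-Nd4l to mt-Nd6, which lie in 1 stretch, came before mt-Nd2, which lies earlier on the plus strand. The median fold of all peaks was 3.86 in the CHAPIR list and 3.49 in the NC list. An FDR of 0 was given to 7 of 8 member peaks in each list, against 0.712% of all CHAPIR peaks and 0.544% of all NC peaks. It was not particular to the members. On the mitochondrial chromosome, members included, 11 of 22 CHAPIR peaks and 9 of 21 NC peaks had it. Among them were peaks of the rRNA gene mt-Rnr2 with folds of only 1.83 (CHAPIR) and 1.21 (NC). A fold of at least 4 was given to 6 of the 8 CHAPIR member peaks and 7 of the 8 NC member peaks, against 47.6% and 41% of all peaks of those lists.

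Member peaks were wider than most. The median width of member peaks was 434 bases in both lists, against 181 exonic bases over all CHAPIR peaks and 238 over all NC peaks. A single block of at least 1000 bases was seen for 3 CHAPIR peaks (mt-Nd2, mt-Nd4 and mt-Nd5) and 2 NC peaks (mt-Nd4 and the 3′ peak of mt-Nd5). Over all peaks such blocks made up 0.235% of the CHAPIR list and 0.846% of the NC list. Width is bounded by the gene here, and a peak that fills its gene gives no position for a methylated adenosine within it.

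**Figure D3:**
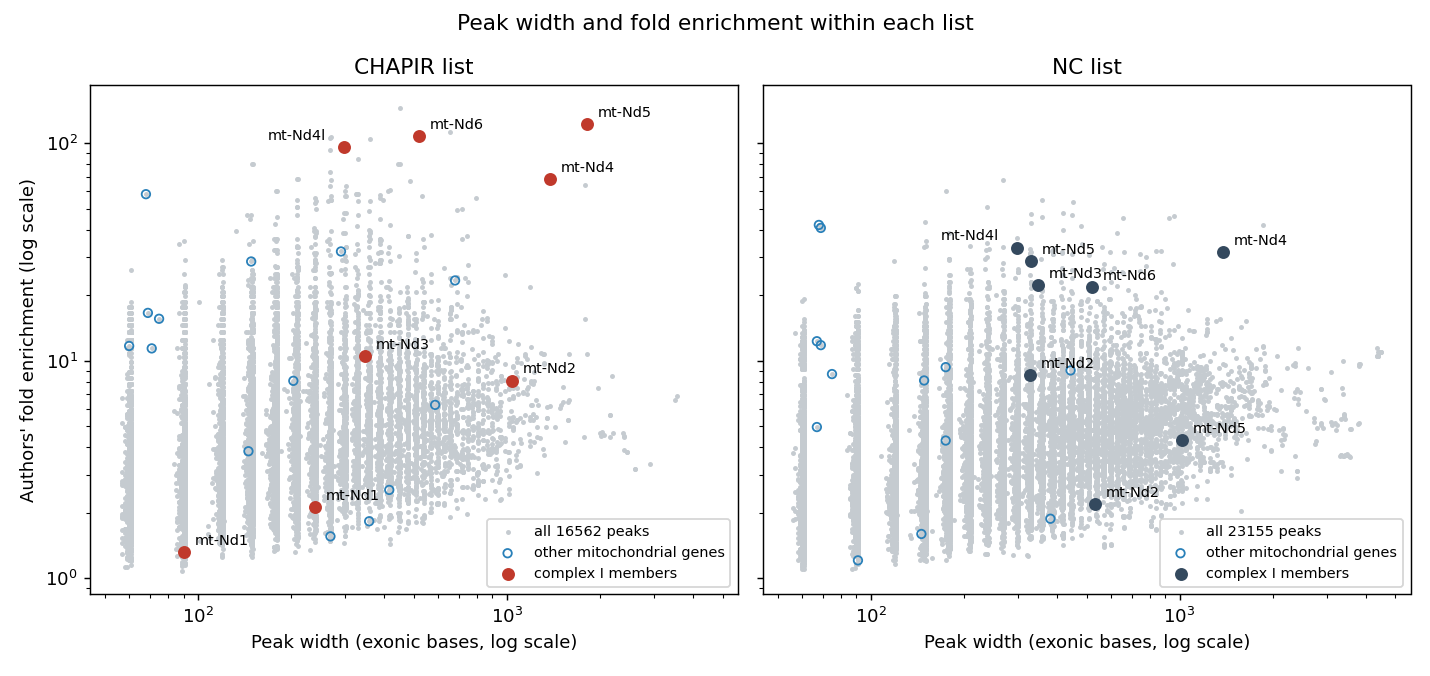
Peak width in exonic bases and authors' fold enrichment, both on log axes, for all CHAPIR peaks (left) and all NC peaks (right), with the complex I genes as filled points and other mitochondrial genes as open circles. In the CHAPIR panel mt-Nd5 (1824 bases, 122-fold) and mt-Nd4 (1378 bases, 68.3-fold) lie at the upper right edge of all peaks, and in the NC panel mt-Nd4 (1378 bases, 31.7-fold) lies near that edge.

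Positions were compared with overlap on the same strand of at least 1 base. Of the 8 CHAPIR peaks 6 were overlapped by an NC peak of the same gene, all but the mt-Nd1 peaks, against 72.2% of all CHAPIR peaks. All 8 NC peaks were overlapped by a CHAPIR peak, against 50.5% of all NC peaks. Whole-gene peaks meet such a rule by their width alone.

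The region labels followed the length of the gene. The deposited region was coding sequence with 3′ UTR for 9 CHAPIR peaks and 6 NC peaks that reached the last base of a mitochondrial protein-coding gene whose length is a multiple of 3. It was coding sequence alone for the 3 peaks in each list that reached the end of a gene of another length, as in mt-Nd4 (1378 bases). No peak that stopped short of the end had a 3′ UTR label. Most mitochondrial mRNAs of mammals have little or no 3′ UTR, and some, mt-Nd4 among them, gain their full stop codon only when the poly(A) tail is added. The 3′ UTR label of mt-Nd2, mt-Nd3, mt-Nd4l, mt-Nd5 and mt-Nd6 thus went with a gene length that holds a whole stop codon, and does not by itself mark an untranslated tail.

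A second copy of part of the mitochondrial genome lies in nuclear DNA on chromosome 1, and it had peaks too. RefSeq gives the pseudogene Gm10925 the synonym mt-Atp6, and it has the length of mt-Atp6, 681 bases. Set on the offset between these genes, peaks of neighbouring pseudogenes on the minus strand fell onto mt-Nd3, mt-Nd4l and mt-Nd4. Peaks of Gm10925 itself lay on mt-Atp6 (4.03-fold with CHAPIR, 2.11-fold with NC), and peaks of Gm28661 fell on mt-Co2 (3.10-fold and 1.26-fold). The match is by position alone, and sequences were not compared here. The Gm28439 peak (chromosome 1, 24611535 to 24612410) had the same edges in both lists and fell on 63.6% of mt-Nd4, with a fold of 4.67 in the CHAPIR list and 2.63 in the NC list.

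The Gm10222 peak fell on mt-Nd4l, with a fold of 6.81 over 294 bases in the CHAPIR list and 2.99 over 206 bases in the NC list. The Gm28438 peak fell on 230 bases of mt-Nd3 with a fold of 2.41 in the CHAPIR list, and the NC list held none. Reads from such copies can be assigned to either place, and the labels do not say how the authors treated them. The values of mt-Nd3, mt-Nd4l and mt-Nd4, and of mt-Atp6 and mt-Co2 in the other complexes, are uncertain to that extent. The genes mt-Atp8, mt-Co3 and mt-Tg lie between the matched genes and may share this doubt, which was not examined. No peak matched by this offset fell on mt-Nd1, mt-Nd2, mt-Nd5 or mt-Nd6, which held the highest and the lowest fold among the members in the CHAPIR list. That does not clear them of the same doubt. Only called peaks in this region of chromosome 1 were looked at, and copies elsewhere or without a peak were not examined.

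Among the other mitochondrial protein-coding genes, coverage was lower in both lists. The 6 genes of complexes III, IV and V had 50.3% of their 5042 bases in peaks in the CHAPIR list and 29.2% in the NC list. For complex I, the median fold of the best peaks was 68.3 over 7 genes in the CHAPIR list and 25.4 over 6 genes in the NC list. For the other complexes it was 8.09 over 5 genes and 4.30 over 5 genes. The gap depended on how a gene's peak was chosen: by the highest fold of each gene, the medians of the other complexes were 23.4 and 8.12, while those of complex I stayed at 68.3 and 25.4. This is a description of 7 and 6 genes on shared RNA precursors, with no test. The chromosome 1 copy had peaks matched to genes of both groups, so the doubt over read assignment touches both sides. The cytochrome c oxidase gene mt-Co1 had a peak in neither list. The ATP synthase gene mt-Atp6 was covered whole with a fold of 23.4 in the CHAPIR list, against 65.2% covered at 9.03 in the NC list. The cytochrome b gene mt-Cytb, which follows mt-Nd6 on the chromosome, had a CHAPIR peak of 60 bases at its 5′ end with a fold of 11.7 and one of 587 bases at its 3′ end with a fold of 6.27, against 1 NC peak with a fold of 1.88.

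**Figure D4:**
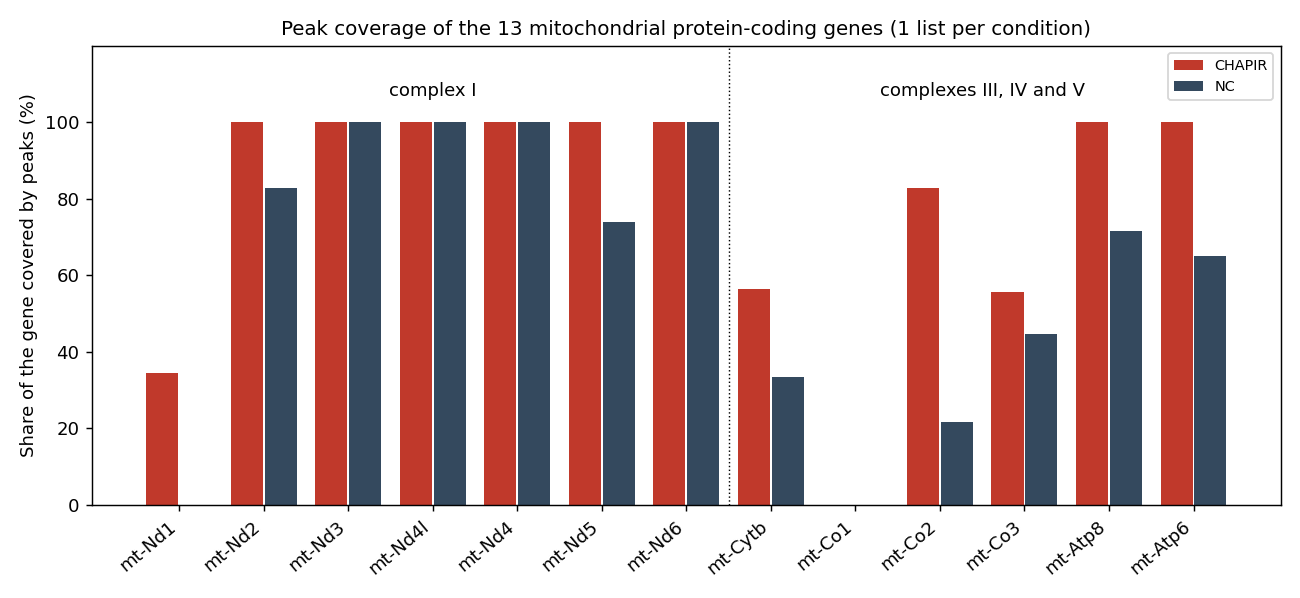
Share of each of the 13 mitochondrial protein-coding genes covered by peaks, in percent (CHAPIR left and NC right in each pair, 1 list per condition, no error available). For complex I 6 genes are at 100% in the CHAPIR list and 4 in the NC list, for the other complexes mt-Atp8 and mt-Atp6 are at 100% in the CHAPIR list and none in the NC list, and mt-Co1 is at 0 in both.

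Among mitochondrial genes with a pair of peaks in a list, the peak nearer the 5′ end mostly had the higher fold. This held for 6 of 7 such cases, 3 of 4 in the CHAPIR list and 3 of 3 in the NC list. The exception was mt-Nd1, whose first peak started 299 bases into the gene. The gene mt-Co3 counts in both lists. The share over all genes with 2 peaks was not computed, so the count describes these genes and no more. Protein-coding genes with 1 partial peak are left out of this count. In the NC list that peak lay at the 5′ end of mt-Co2 and mt-Atp6 but reached the 3′ end of mt-Cytb and mt-Atp8. The cytochrome c oxidase gene mt-Co3 had a fold of 31.8 at its 5′ end and 3.84 at its 3′ end in the CHAPIR list, and 9.35 and 4.30 in the NC list. In mt-Co2, of the same enzyme, the CHAPIR folds were 28.6 at the 5′ end and 2.55 at the 3′ end.

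Nuclear genes for complex I, with its assembly factors, had lower best folds than the pumping subunits mt-Nd4 and mt-Nd5. In the CHAPIR list several stood above mt-Nd2, the other pumping subunit. Of 37 with a peak, 25 were in both lists, 12 in the CHAPIR list only and 0 in the NC list only. Their median best fold was 4.11 over 37 genes in the CHAPIR list and 2.58 over 25 genes in the NC list, and their best peaks reached at most 532 exonic bases in the CHAPIR list and 710 in the NC list. Among these best peaks the highest fold was 32.3 in the CHAPIR list (Ndufb3, over 265 bases), above mt-Nd3, mt-Nd2 and mt-Nd1. In the NC list it was 5.14 (Ndufb7). The peak of highest fold was not taken for the nuclear genes, so their order here holds for best peaks only. Also above mt-Nd3 (10.5) in the CHAPIR list were Ndufb2 (20.2), Ndufaf8 (13.5), Ndufaf7 (11.4, with an FDR of 0.0355) and Ndufab1 (10.6). Ndufa4 (8.84), Ndufs4 (8.32) and Ndufa8 (8.18) stood above mt-Nd2 (8.10), and the best peaks of the other nuclear genes below it. The shared subunit genes of smallest FDR were Ndufb7 (6.22-fold with CHAPIR, 5.14-fold with NC), Ndufa5 (2.21 and 2.58), Ndufa13 (2.88 and 2.26) and Ndufs4 (8.32 and 3.39). Those in the CHAPIR list only were led by Ndufc1 (2.92-fold), Ndufc2 (7.37-fold), Ndufa4 (8.84-fold) and Ndufa3 (2.56-fold). Ndufa4 is named as a complex I subunit but is now assigned to cytochrome c oxidase.

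Outside the mitochondrial genome, the genes most like the 6 shared members were found by distance on the log2 scale over both lists. Distance was taken from the median of the members' log2 folds, equal to folds of 81.1 in the CHAPIR list and 25.2 in the NC list. The NC value differs from the median fold of 25.4 given above because it was taken on the log2 scale. Among 3542 genes with a peak in both lists, Mbd2, a reader of methylated DNA, was nearest (80.1-fold with CHAPIR, 25.7-fold with NC, distance 0.03). Next came the phosphatase gene Ptp4a2 (105 and 16.8, distance 0.69), Gm4951 (55.1 and 34.9, 0.73), the mitochondrial carrier gene Slc25a42 (56.2 and 16.8, 0.79) and the carboxylase gene Ggcx (54.1 and 15.6, 0.90). Their CHAPIR peaks were 240 to 451 bases wide. With 2 lists as the only points, likeness is of a pair of folds and not of a pattern.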

How the data were processed

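MeRIP-seq measured m6A in mouse heart RNA, with 1 immunoprecipitated and 1 input library per condition (4 in all). Cutadapt trimming, HISAT2 alignment, exomePeak peak calling and Ensembl annotation are as per the labels' protocols. HISAT2 2.1.0 and GRCm38 are named in the submitters' processing notes. For exomePeak, no version, options or threshold are given in the labels. Each deposited fold is a ratio, made by the authors, of signal in the immunoprecipitated library to signal in the input. Each peak's deposited p-value and FDR also come from the authors, and an FDR written as 0 lies below the smallest printed number. The largest FDR was 0.0468 in the CHAPIR list and 0.0501 in the NC list. Starts were raised by 1 base for printing. Depth is unknown, so no precision from depth can be given.

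Members were taken by symbol. Gene spans, lengths and names come from RefSeq tables of GRCm38.p6, which held all 37 mitochondrial genes. Overlap used exonic blocks of the same gene and strand, at least 1 shared base, in Python 3.11.15 with pandas 2.3.3 and numpy 2.4.6, checked on simulated pairs. Figures used matplotlib 3.10.9. Alternatives were stricter peaks (FDR up to 1e-05, or a fold from 4 up), equally long lists, other overlap rules and a coverage of 80% in place of 50%. Named genes were all members, other mitochondrial genes, up to 4 nuclear complex I genes in each class by FDR, and 5 genes by likeness. Nuclear complex I genes above mt-Nd2 in the fold of their best CHAPIR peak were also named. Members and lists were chosen with earlier results of these data known. Peak sequences were not analysed here.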

Additional observations from a re-analysis of the deposited data

How the results depend on the processing

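Each condition had 1 list, so no result has a replicate error and depth limits every absence to the authors' threshold. No paired analysis was possible because each condition had 1 immunoprecipitated and 1 input library. Of the 9 counts of members, recomputed to 35 values under stricter peaks, equally long lists, other overlap rules and other coverage rules, 34 values stayed within 1.5 times the count reported. The exception was a fold of at least 4, which left 0 genes in the CHAPIR list only, as both mt-Nd1 peaks were lower. A factor of 1.5 is wide for counts this small. Several settings, moreover, could not move any count. The largest FDR of a member peak was 2.51e-93 (mt-Nd3, CHAPIR list). Neither the stricter FDR limit nor the equally long lists, cut by p-value, therefore removed a member peak. Ignoring strand could not change overlaps within the same gene, whose peaks share a strand. Unchanged values under these settings say nothing about how stable the counts are. The 6 members with at least 50% covered in the NC list became 4 with the peak of smallest FDR alone. They became 5 at a coverage of 80% or at a fold of at least 4. The 8 overlapped NC peaks became 6 when 50% of both peaks had to be shared, and 7 at a fold of at least 4. Leaving out mt-Nd3, mt-Nd4l and mt-Nd4, to which peaks of the chromosome 1 copy were matched, was chosen after seeing the data and leaves 4 members by construction. Then 3 were in both lists, 3 CHAPIR peaks and 5 NC peaks were overlapped, and 3 members in each list had at least 50% of the gene covered. Taking each gene's peak of highest fold, also chosen after seeing the data, moved the median fold of the other protein-coding mitochondrial genes to 23.4 in the CHAPIR list and 8.12 in the NC list, and left that of the members as it was.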

Other observations

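Some of the mitochondrial tRNA genes next to the complex I genes carried peaks, each over the whole tRNA. Of 9 such neighbours, 3 had a peak in both lists (mt-Tl1, mt-Tm and mt-Tg), 2 in the NC list only (mt-Ti and mt-Th) and 4 in neither (mt-Tw, mt-Tr, mt-Tl2 and mt-Te). The last group includes mt-Tr just before mt-Nd4l and mt-Tl2 just before mt-Nd5, members with some of the highest folds. mt-Tg, which ends at the base before mt-Nd3, had a fold of 58.3 in the CHAPIR list and 42.1 in the NC list, both above the fold of mt-Nd3 in the same list. mt-Tm, which ends at the base before mt-Nd2, had a fold of 16.6 in the CHAPIR list and 40.8 in the NC list, again above mt-Nd2. mt-Tl1, just before mt-Nd1, had a fold of 15.6 with CHAPIR and 8.69 with NC. mt-Ti, on the other side of mt-Nd1, had a fold of 11.8 in the NC list and no CHAPIR peak, and this peak covers the last 2 bases of mt-Nd1 (3706 to 3707), where the genes overlap. mt-Th, between mt-Nd4 and mt-Nd5, had a fold of 4.96 in the NC list. Of the 22 tRNA genes, 3 had a peak in both lists, 1 in the CHAPIR list only, 3 in the NC list only and 15 in neither. These RNAs are shorter than the peaks of most genes, and the depth behind them is unknown.

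Widths of single-block peaks clustered near multiples of 30 bases. Of the peaks of at most 400 bases, 91.6% in the CHAPIR list and 92.2% in the NC list were within 2 bases of such a multiple, against 16.7% for an even spread. Edges inside mt-Nd1, mt-Nd2 and mt-Nd5 are therefore known only to about that step.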
